A study of Mus musculus with 8 samples.

Results

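In bulk RNA of mouse lung, 9 genes listed for surface and secreted proteins of mature neutrophils were followed. Ly6g, Cxcr2, Cxcr1, Fpr1, Fpr2 and Trem1 stand for the cell surface, and Retnlg, S100a8 and S100a9 for the secreted products. The 9 genes were chosen by symbol as a list of known neutrophil genes, with earlier results of these data known. They were mapped from the Ensembl gene IDs of the count files. All 9 were found among the 55416 genes listed, and all 9 were among the 18560 genes that passed the filter on low counts and were tested.

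RNA was sequenced from lungs of female C57BL/6 mice (C57BL/6J in the methods), 6 to 8 weeks old. The 3 control mice (numbered 1, 2 and 4) received the solvent DMSO intravenously and then saline intraperitoneally. The 3 LPS mice (1, 6 and 7) were given 35 mg/kg of lipopolysaccharide, a bacterial cell wall component that sets off endotoxin shock. The 2 dual-treated mice (2 and 5) received 10 mg/kg of YW3-56, dissolved in DMSO, 30 minutes before the same dose of LPS. The labels call YW3-56 a PAD4 inhibitor, and the paper uses both that name and the wider one of PAD inhibitor, PAD being protein arginine deiminase. Lungs were taken 24 h after LPS. The methods mention no DMSO for the LPS mice, so YW3-56 and its solvent cannot be told apart in the dual-treated group. Control mice did receive DMSO, so LPS and control lungs may differ by the solvent as well as by LPS. Each lung is a separate mouse, and the 3 comparisons among the groups share mice. They ask what LPS did to these genes, what YW3-56 changed in lungs given LPS, and how far dual-treated lungs stood from control lungs.

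Total counts were 19061949, 19796242 and 20527836 in control mice 1, 2 and 4. They were 20818501, 19379911 and 19279724 in LPS mice 1, 6 and 7, and 19875939 and 20908608 in dual-treated mice 2 and 5. Levels are given as CPM, counts scaled by library size and by TMM, a correction for a few genes taking a large share of the counts. The scaling factors were 1.07, 1.08 and 1.06 in control, 0.810, 0.894 and 0.930 in LPS and 1.11 and 1.09 in dual-treated lungs. Counts are PCR-amplified reads without molecular identifiers, so counting intervals cover counting error only. The lung label was borne out by its markers: surfactant protein C (Sftpc) ranged from 8322 to 24540 CPM over the 8 mice, and the club cell protein Scgb1a1 from 22670 to 65310 CPM.

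Neutrophils are made in bone marrow, leave it as mature cells and gather in lung capillaries in endotoxin shock. They find their way with receptors for chemokines (Cxcr1, Cxcr2) and for formylated bacterial peptides (Fpr1, Fpr2), and amplify their response through Trem1. Their cytosol is packed with the calcium-binding pair S100a8 and S100a9, which are released as alarmins. The lungs were measured in bulk, so a change in the number of neutrophils and a change in RNA per neutrophil cannot be told apart.

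LPS mice 6 and 7 stood apart from every other lung before any neutrophil gene was considered. The 11 squamous epithelium markers summed to 707 and 1998 CPM in them, against 1.84 CPM in LPS mouse 1 and at most 26.3 CPM in any other lung. The 8 skeletal muscle markers summed to 337 and 682 CPM in the same mice and to at most 70.7 CPM elsewhere. Krt13 was the most abundant squamous gene in LPS mouse 7 and Krt4 in LPS mouse 6, while Tnnc2 was at 0 in both. Fold changes of the 9 genes that involve LPS mice were therefore also computed with mice 6 and 7 left out, while the within-mouse ratios and the other gene lists were not. What part this other tissue has in the neutrophil values was not tested.

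In LPS against control lungs, 7 of the 9 genes rose, 1 fell (Cxcr1) and 1 was not called (Fpr1), where a call needs a Benjamini-Hochberg adjusted p under 0.05 in edgeR's quasi-likelihood F-test. Over all tested genes, 32.6% rose and 33.9% fell in that comparison. From LPS to dual-treated lungs, 3 of the 9 rose (Cxcr2, Fpr1 and Retnlg), 2 fell (Ly6g and Trem1) and 4 were not called, while 31.7% of all genes rose and 27.4% fell. In dual-treated against control lungs, 7 of the 9 rose and 2 were not called, Ly6g and Cxcr1, against 9.13% of all genes that rose and 7.02% that fell. The median log2FC of the 9 genes was 2.71, 0.38 and 3.09 in these comparisons, and that of all tested genes was -0.01, 0.06 and 0.00. Without dual-treated mouse 5, the log2FC of Cxcr1 against control was -6.47, where it was -1.04 with both dual-treated mice. The value of -6.47 rests on 1 dual-treated mouse with 0 counts. Wherever 1 mouse is left in a group, its spread is assumed from the other groups. With LPS mice 6 and 7 both left out, the calls of Ly6g, Cxcr2 and Retnlg in dual-treated against LPS lungs were lost. Their log2FC was then -2.08, 1.13 and 1.35, where it was 2.08 for Fpr1 and -1.19 for Trem1. Of the 7 genes that rose with LPS, Cxcr2 and Retnlg rose further in dual-treated lungs, Ly6g and Trem1 fell against LPS, and Fpr2, S100a8 and S100a9 were not called.

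Scaling shifts these values together. Without TMM factors, on library size only, the median log2FC of all tested genes was -0.29 in LPS against control, 0.38 in dual-treated against LPS and 0.04 in dual-treated against control lungs. The share of calls that were higher was then 35.6% in LPS against control, where it was 49.0% with TMM, and 71.0% in dual-treated against LPS, where it was 53.6%. In dual-treated against control lungs it was 63.8% on library size and 56.6% with TMM. The 5 calls among the 9 genes in dual-treated against LPS lungs kept their direction on library size only, and Fpr2 was then called higher as well, at a log2FC of 0.71.

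**Figure D1:**
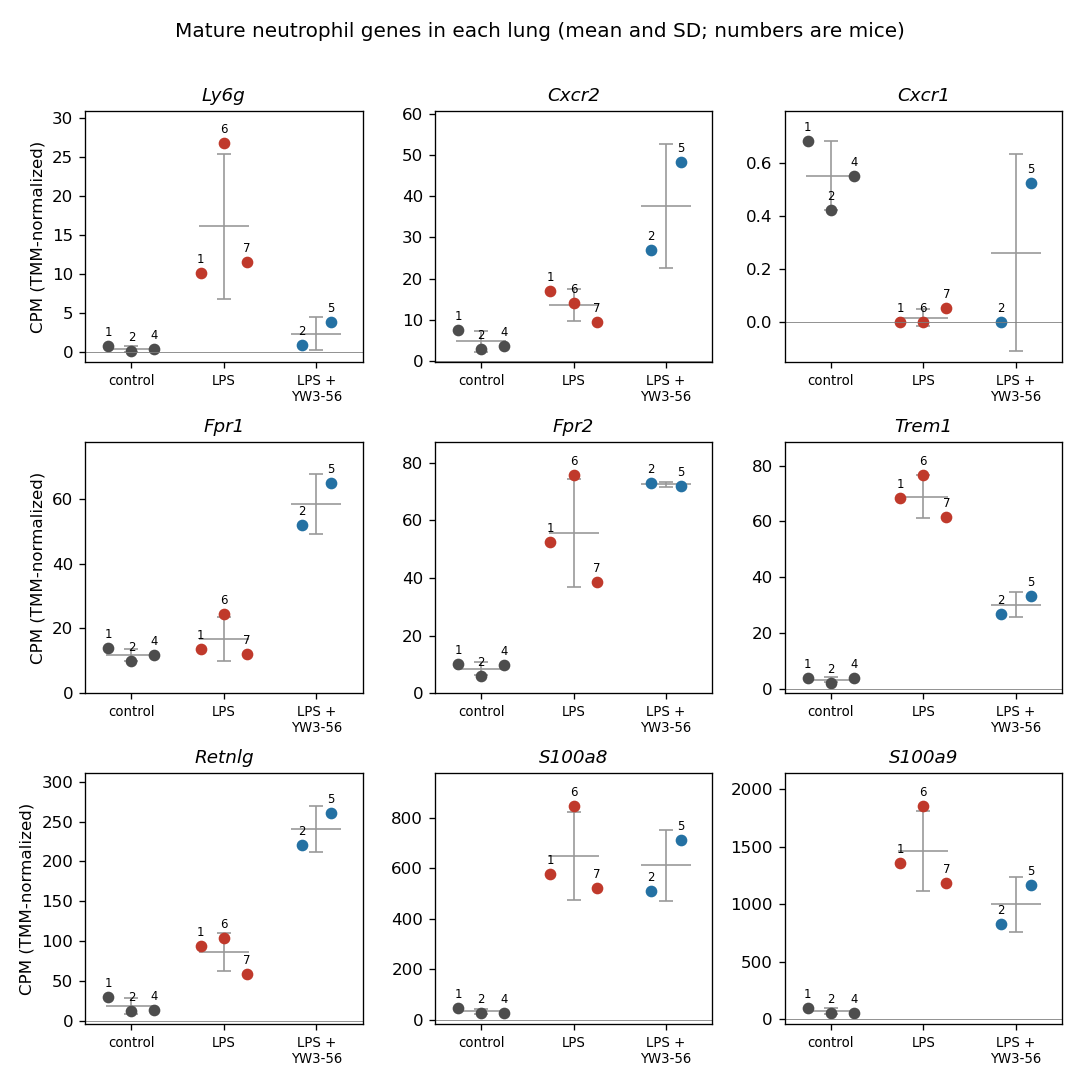
Each panel plots 1 gene's TMM-normalized CPM on a linear axis in control, LPS and dual-treated lungs, with a point for each mouse (its number above it) and bars for the mean and SD. Ly6g and Trem1 peak in LPS lungs, Cxcr2, Fpr1 and Retnlg peak in dual-treated lungs, and Cxcr1 is highest in control lungs.

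Ly6g encodes the GPI-anchored surface protein by which mouse neutrophils are usually sorted (ENSMUSG00000022582, chromosome 15, 75027089 to 75030982, plus strand, GRCm39). It stood at 0.832, 0.141 and 0.368 CPM in control mice 1, 2 and 4, at 10.1, 26.7 and 11.5 CPM in LPS mice 1, 6 and 7, and at 0.908 and 3.86 CPM in dual-treated mice 2 and 5. Every LPS mouse lay above every other mouse, and dual-treated mouse 2 lay just above the highest control. These levels rest on 3 to 17 counts in a control lung, 170 to 463 in an LPS lung, and 20 and 88 in the dual-treated lungs. The means were 0.447 ± 0.352 CPM (SD, n = 3) in control, 16.1 ± 9.23 CPM (SD, n = 3) in LPS and 2.39 ± 2.09 CPM (SD, n = 2) in dual-treated lungs. Ly6g rose in LPS lungs, by a log2FC of 5.16 (SE 0.711, adjusted p = 0.000157 from edgeR's quasi-likelihood F-test, Benjamini-Hochberg adjusted). It fell in dual-treated against LPS lungs, with a log2FC of -2.75 (SE 0.692, adjusted p = 0.00732 from the same test). Against control, dual-treated lungs had a log2FC of 2.42 (SE 0.770, adjusted p = 0.0622 from the same test), which was not called. The same value passed without a filter on low counts, and under a fold over 2 with an unadjusted p.

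Single mice weighed on the size of these Ly6g changes. Without control mouse 1 the log2FC was 5.94 in LPS against control and 3.20 in dual-treated against control lungs. The drop from LPS to dual-treated lungs was -2.09 without dual-treated mouse 2 and -4.17 without mouse 5, and it passed the test both times, with the spread of the lone dual-treated mouse assumed from the other groups. With LPS mice 6 and 7 left out it was -2.08 and did not pass. The dual-treated against control value was 3.08 and passed without dual-treated mouse 2, and was 0.995 without mouse 5, under the same assumption. How reads shared with the neighbouring Ly6 paralogs were counted is not given in the sources used here, so the Ly6g level carries that doubt.

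Cxcr2 encodes the chemokine receptor that draws neutrophils out of marrow and toward ELR chemokines (ENSMUSG00000026180, chromosome 1, 74193150 to 74200405, plus strand). Its level was 7.58, 3.00 and 3.63 CPM in control mice 1, 2 and 4, 17.1, 14 and 9.49 CPM in LPS mice 1, 6 and 7, and 27.0 and 48.3 CPM in dual-treated mice 2 and 5. The groups formed 3 steps without overlap, with control lungs lowest and dual-treated lungs highest. Mean levels were 4.74 ± 2.48 CPM (SD, n = 3), 13.5 ± 3.82 CPM (SD, n = 3) and 37.6 ± 15.1 CPM (SD, n = 2) in the same order of groups. Cxcr2 rose by a log2FC of 1.52 with LPS (SE 0.374, adjusted p = 0.00547 from edgeR's quasi-likelihood F-test, Benjamini-Hochberg adjusted). It rose by a further 1.48 from LPS to dual-treated lungs (SE 0.384, adjusted p = 0.00863 from the same test). Dual-treated lungs stood 2.99 above control on the log2 scale (SE 0.402, adjusted p = 0.00139 from the same test). The step from LPS to dual-treated lungs leaned on few mice: it was 0.97 without dual-treated mouse 5 and 1.13 without LPS mice 6 and 7, and passed the test in neither case.

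Cxcr1, the second receptor for ELR chemokines, lies next to Cxcr2 on the opposite strand (ENSMUSG00000048480, chromosome 1, 74230944 to 74233790, minus strand). It was counted 14, 9 and 12 times in control mice 1, 2 and 4, or 0.685, 0.422 and 0.552 CPM. LPS mice 1 and 6 had 0 counts and LPS mouse 7 had 1 count, or 0.0558 CPM. Among dual-treated mice, mouse 2 had 0 counts and mouse 5 had 12 counts, or 0.527 CPM. So every LPS mouse lay below every control mouse, and the dual-treated mice split, 1 with the LPS mice and 1 among the controls. A count of 0 allows up to 3 counts in that library. Cxcr1 fell with LPS (fitted log2FC -4.46, SE 1.33, adjusted p = 0.0142 from edgeR's quasi-likelihood F-test, Benjamini-Hochberg adjusted), the opposite direction to Cxcr2 in the same lungs. With the LPS and control mice fitted alone, Cxcr1 did not pass the filter on low counts and was not tested. From the counts alone, control lungs had 28.7 times the LPS level, with a 95% counting interval from 4.83 to 1166. The dual-treated lungs together had 13.9 times the LPS level, with an interval from 2.06 to 596, and 0.486 times the control level, with an interval from 0.230 to 0.958. These intervals pool the counts of each group and leave out the spread between mice, which was 0 against 12 counts in the dual-treated lungs.

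The test called Cxcr1 in neither comparison of the dual-treated lungs: the fitted log2FC was 3.42 against LPS (SE 1.53, adjusted p = 0.0793) and -1.04 against control (SE 0.977, adjusted p = 0.521, both from edgeR's quasi-likelihood F-test, Benjamini-Hochberg adjusted). Dual-treated mouse 5 alone set the sign of the value against LPS, which was -2.0 without it. Without mouse 2 the value against LPS was 4.36, and without a filter on low counts it was 3.44, and both passed. Settings with 1 dual-treated mouse take its spread from the other groups. Against control, leaving out mouse 5 gave -6.47, which passed, and leaving out mouse 2 gave -0.10. These fitted values compare libraries at or near 0 counts and depend on the prior count. For LPS against control the value was -6.50 without LPS mouse 7, and with LPS mice 6 and 7 left out the -6.54 no longer passed.

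Fpr1, the high-affinity receptor for formylated bacterial and mitochondrial peptides, is encoded on chromosome 17 (ENSMUSG00000045551, 18096733 to 18104202, minus strand). It measured 13.9, 9.90 and 11.7 CPM in control mice 1, 2 and 4, 13.8, 24.5 and 12.1 CPM in LPS mice 1, 6 and 7, and 51.9 and 64.9 CPM in dual-treated mice 2 and 5. LPS mice 1 and 7 lay within the control range and LPS mouse 6 above it, while both dual-treated mice lay far above all others. Group means were 11.8 ± 1.98 CPM (SD, n = 3), 16.8 ± 6.77 CPM (SD, n = 3) and 58.4 ± 9.21 CPM (SD, n = 2). With LPS alone Fpr1 was not called, at a log2FC of 0.51 (95% interval -0.07 to 1.08, adjusted p = 0.105 from edgeR's quasi-likelihood F-test, Benjamini-Hochberg adjusted). In dual-treated lungs it rose by 1.80 against LPS (SE 0.273, adjusted p = 0.000419 from the same test) and by 2.31 against control (SE 0.275, adjusted p = 0.000747 from the same test). The value for LPS against control was 0.71 without LPS mouse 7 and 0.48 without a filter on low counts, and passed both times. It was 0.14 without LPS mouse 6 and 0.22 on library size only, and passed in neither case.

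Its neighbour Fpr2, which binds formyl peptides as well as serum amyloid A, annexin A1 and the cathelicidin Camp, is read from the opposite strand (ENSMUSG00000052270, chromosome 17, 18108070 to 18114215, plus strand). Fpr2 stood at 9.98, 5.87 and 9.70 CPM in control mice 1, 2 and 4, at 52.7, 75.8 and 38.7 CPM in LPS mice 1, 6 and 7, and at 73.1 and 72.0 CPM in dual-treated mice 2 and 5. All 5 mice given LPS lay well above the controls, and the dual-treated mice fell inside the LPS range, just under LPS mouse 6. The means were 8.52 ± 2.30 CPM (SD, n = 3) in control, 55.7 ± 18.8 CPM (SD, n = 3) in LPS and 72.5 ± 0.781 CPM (SD, n = 2) in dual-treated lungs. Fpr2 rose by a log2FC of 2.71 with LPS (SE 0.267, adjusted p = 1.86e-05 from edgeR's quasi-likelihood F-test, Benjamini-Hochberg adjusted) and by 3.09 in dual-treated against control lungs (SE 0.283, adjusted p = 0.000186 from the same test). Dual-treated against LPS lungs were not called, at a log2FC of 0.38 (95% interval -0.22 to 0.98, adjusted p = 0.246 from the same test). That value was 0.66 and passed without LPS mouse 6, and was 0.16 and did not pass without LPS mouse 7. Fpr2 shares 92 exonic bases with Fpr3, which had 0 counts in all 8 mice. How reads in the shared bases were counted is not given in the sources used here, so both levels carry that doubt.

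Trem1 is an activating receptor of neutrophils and monocytes that signals through the adaptor Tyrobp (ENSMUSG00000042265, chromosome 17, 48539784 to 48553952, plus strand). It reached 3.82, 2.07 and 3.68 CPM in control mice 1, 2 and 4, 68.4, 76.7 and 61.6 CPM in LPS mice 1, 6 and 7, and 26.9 and 33.3 CPM in dual-treated mice 2 and 5. The 3 groups were far apart with no overlap, and the dual-treated lungs took the middle place. Means were 3.19 ± 0.974 CPM (SD, n = 3), 68.9 ± 7.55 CPM (SD, n = 3) and 30.1 ± 4.53 CPM (SD, n = 2). Trem1 rose by a log2FC of 4.43 with LPS (SE 0.218, adjusted p = 6.19e-07 from edgeR's quasi-likelihood F-test, Benjamini-Hochberg adjusted). In dual-treated lungs it fell against LPS, with a log2FC of -1.19 (SE 0.209, adjusted p = 0.00098 from the same test). It was still higher than control by 3.24 on the log2 scale (SE 0.223, adjusted p = 4.09e-05 from the same test). With LPS mice 6 and 7 left out the values were 4.43 and -1.19, and both passed. A long noncoding RNA on the opposite strand, which the count files do not list, shares 823 exonic bases with Trem1. The strand setting of the counting is not given in the sources used here.

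Among the secreted products, Retnlg encodes a resistin-like protein made by neutrophils and their late precursors (ENSMUSG00000022651, chromosome 16, 48692547 to 48694862, plus strand). Retnlg measured 30.3, 11.6 and 13.8 CPM in control mice 1, 2 and 4, 94.3, 104 and 58.7 CPM in LPS mice 1, 6 and 7, and 220.6 and 261 CPM in dual-treated mice 2 and 5. As with Cxcr2, the groups rose in 3 steps without overlap. Control mouse 1, the highest control for Retnlg, was also the highest control for the other 8 genes. Mean levels were 18.5 ± 10.2 CPM (SD, n = 3), 85.7 ± 23.8 CPM (SD, n = 3) and 240.8 ± 28.6 CPM (SD, n = 2). Retnlg rose by a log2FC of 2.21 with LPS (SE 0.348, adjusted p = 0.000375 from edgeR's quasi-likelihood F-test, Benjamini-Hochberg adjusted) and by 1.49 from LPS to dual-treated lungs (SE 0.359, adjusted p = 0.00579 from the same test). Against control, dual-treated lungs were higher by 3.70 on the log2 scale (SE 0.382, adjusted p = 0.00034 from the same test). With LPS mice 6 and 7 left out, the value for dual-treated against LPS lungs was 1.35 and did not pass.

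S100a8 (ENSMUSG00000056054, chromosome 3, 90567118 to 90578128, plus strand) encodes the smaller chain of calprotectin, which binds calcium and withholds zinc and manganese from microbes. Its level was 45.3, 26.8 and 27.3 CPM in control mice 1, 2 and 4, 576, 846 and 520.2 CPM in LPS mice 1, 6 and 7, and 511 and 712 CPM in dual-treated mice 2 and 5. All 5 mice given LPS stood far above the controls, and the LPS and dual-treated ranges overlapped. The means were 33.1 ± 10.5 CPM (SD, n = 3) in control, 648 ± 174 CPM (SD, n = 3) in LPS and 611 ± 142 CPM (SD, n = 2) in dual-treated lungs. S100a8 rose by a log2FC of 4.29 with LPS (SE 0.286, adjusted p = 2.21e-06 from edgeR's quasi-likelihood F-test, Benjamini-Hochberg adjusted) and by 4.21 in dual-treated against control lungs (SE 0.295, adjusted p = 4.5e-05 from the same test). For dual-treated against LPS lungs the log2FC was -0.08 (95% interval -0.71 to 0.54, adjusted p = 0.81 from the same test). Its sign was not settled: the value was 0.24 on library size only, 0.15 without LPS mouse 6, 0.11 without dual-treated mouse 2 and 0.08 without LPS mice 6 and 7, and it passed the test in none of these.

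S100a9, the partner chain (ENSMUSG00000056071, chromosome 3, 90599931 to 90603071, minus strand), lies close to S100a8 in the S100 gene cluster. S100a9 stood at 98.3, 55.5 and 57.3 CPM in control mice 1, 2 and 4, at 1362, 1856 and 1183 CPM in LPS mice 1, 6 and 7, and at 832 and 1171 CPM in dual-treated mice 2 and 5. Both dual-treated mice lay below the lowest LPS mouse, though mouse 5 by a narrow margin. Group means were 70.3 ± 24.2 CPM (SD, n = 3), 1467 ± 349 CPM (SD, n = 3) and 1001 ± 240.2 CPM (SD, n = 2). S100a9 rose by a log2FC of 4.38 with LPS (SE 0.293, adjusted p = 2.25e-06 from edgeR's quasi-likelihood F-test, Benjamini-Hochberg adjusted) and by 3.83 in dual-treated against control lungs (SE 0.297, adjusted p = 7.73e-05 from the same test). For dual-treated against LPS lungs the log2FC of -0.55 was not called (95% interval -1.20 to 0.10, adjusted p = 0.126 from the same test). With DESeq2 it was -0.60 and without a filter on low counts -0.52, and it passed both times. It did not pass on library size only (-0.23), without LPS mouse 6 (-0.35), or without dual-treated mouse 2 (-0.35) or 5 (-0.84).

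**Figure D2:**
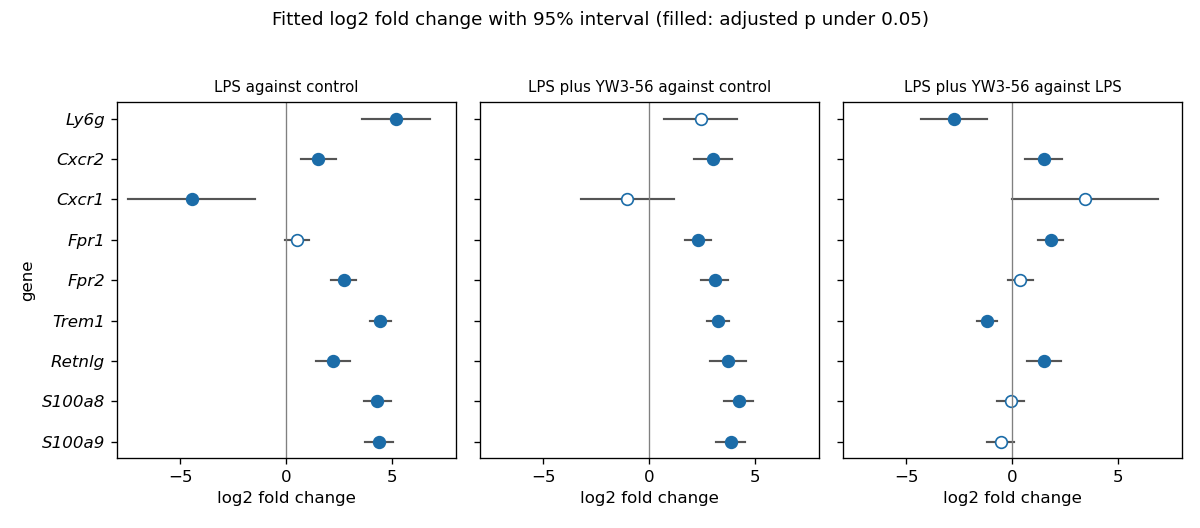
Points are fitted log2 fold changes on a linear axis with 95% intervals as lines, 1 gene per line and 1 panel per comparison, and filled points have an adjusted p under 0.05. LPS against control spans -4.46 (Cxcr1) to 5.16 (Ly6g), and in dual-treated against LPS lungs the points lie on both sides of 0.

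Together the 9 genes took a small share of all counts in control lungs: 0.0226%, 0.0124% and 0.0136% in mice 1, 2 and 4. The share was 0.178%, 0.270% and 0.176% in LPS mice 1, 6 and 7, and 0.193% and 0.258% in dual-treated mice 2 and 5. Every mouse given LPS was thus above every control, and the dual-treated mice lay within the LPS range. S100a8 and S100a9 made up most of these counts, 68.2%, 71.4% and 66.1% in control mice 1, 2 and 4. They held 88.3%, 89.4% and 89.9% in LPS mice 1, 6 and 7, and 77.0% and 79.6% in dual-treated mice 2 and 5. The share of the S100 pair was higher in each LPS lung than in any other lung, with the dual-treated lungs between.

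Levels of different genes were compared per length, as CPM per kilobase of exon. In control lungs the order of mean levels was S100a9 (55.1), S100a8 (33.6), Retnlg (17.1), Fpr1 (8.92), Fpr2 (6.49), Cxcr2 (1.56), Trem1 (1.06), Ly6g (0.464) and Cxcr1 (0.359 CPM per kilobase). Neighbours in that order overlapped between mice except Retnlg with Fpr1 and Fpr2 with Cxcr2. In LPS lungs the order was S100a9 (1150), S100a8 (657), Retnlg (79.2), Fpr2 (42.5), Trem1 (22.9), Ly6g (16.7), Fpr1 (12.7), Cxcr2 (4.44) and Cxcr1 (0.0121 CPM per kilobase). Here Retnlg overlapped with Fpr2, Trem1 with Ly6g and Ly6g with Fpr1, and the other neighbours did not overlap. In dual-treated lungs the order was S100a9 (785), S100a8 (621), Retnlg (223), Fpr2 (55.2), Fpr1 (44.1), Cxcr2 (12.4), Trem1 (10.01), Ly6g (2.48) and Cxcr1 (0.171 CPM per kilobase). In that group S100a9 overlapped with S100a8 and Cxcr2 with Trem1. By mean level, Ly6g and Trem1 thus ranked above Fpr1 and Cxcr2 in LPS lungs and below them in the other groups.

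How the genes moved against each other was followed by ratios within each mouse, which do not depend on the scaling between libraries. The CPM ratio of Cxcr2 over Ly6g was 9.12, 21.3 and 9.88 in control mice 1, 2 and 4, 1.69, 0.525 and 0.825 in LPS mice 1, 6 and 7, and 29.7 and 12.5 in dual-treated mice 2 and 5. LPS lungs were the low group, and dual-treated lungs were back in the control range or above it. Retnlg over Ly6g was 36.4, 82.3 and 37.4 in control, 9.35, 3.89 and 5.11 in LPS and 243 and 67.6 in dual-treated mice, again lowest in every LPS mouse. Trem1 over Cxcr2 ran the other way, with 0.503, 0.688 and 1.01 in control, 4.0, 5.47 and 6.49 in LPS and 0.998 and 0.690 in dual-treated mice. Fpr1 over Fpr2 was 1.39, 1.69 and 1.20 in control, 0.261, 0.324 and 0.312 in LPS and 0.711 and 0.902 in dual-treated mice, 3 levels without overlap. S100a8 over S100a9 was 0.461, 0.482 and 0.476 in control, 0.423, 0.456 and 0.440 in LPS and 0.615 and 0.607 in dual-treated mice. The dual-treated mice were highest and the LPS mice lowest, with no overlap between any of the groups. Retnlg over S100a8 was 0.669, 0.433 and 0.504 in control, 0.164, 0.123 and 0.113 in LPS and 0.432 and 0.367 in dual-treated mice, so LPS lungs were low once more.

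The difference between LPS and dual-treated mice was tested for 11 such pairs as log2 ratios with a two-sided exact permutation test, in which 2 mice against 3 cannot give a p under 0.1. In 10 of the 11 pairs the groups did not overlap, each with an exact p of 0.1 (0.11 after Benjamini-Hochberg adjustment over the 11 pairs). Of these 10 pairs, 8 have Ly6g as their denominator and so share its fall. How many of all gene pairs fail to overlap was not computed, so the count of 10 has no background to be set against. By a different measure, edgeR's calls of single genes, 31.7% of all genes were higher and 27.4% lower between these groups. As log2 ratios with a prior count of 2, all 8 other genes stood higher relative to Ly6g in the dual-treated mice. For Cxcr1 the lack of overlap comes from the prior count. Dual-treated mouse 2 had 0 Cxcr1 counts, as had LPS mice 1 and 6, and LPS mouse 7 had 1. The difference in log2 ratio was 4.73 for Fpr1, 4.41 for Retnlg, 4.33 for Cxcr2 and 3.31 for Fpr2. It was 2.81 for S100a8, 2.33 for S100a9 and 1.68 for Trem1, and 3.99 for Cxcr1, whose ratio rests on few counts. Fpr1 over Fpr2 was higher by 1.42 and S100a8 over S100a9 by 0.48. Cxcr1 over Cxcr2 overlapped between the groups, with a difference of -0.34 (exact p = 0.8). The pairs with Ly6g moved with the choice of dual-treated mouse, from 0.85 without mouse 2 to 2.52 without mouse 5 for Trem1, and from 3.91 to 5.56 for Fpr1. For Cxcr1 over Cxcr2 even the sign moved, with 0.55 without dual-treated mouse 2, -1.24 without mouse 5, 0.12 without LPS mouse 7 and 0.21 at a prior count of 0.5.

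Over the 8 mice, which form 3 groups, Pearson's r of log2 CPM describes which of the 9 genes ran in parallel. The closest pair was S100a8 with S100a9 (r = 0.996), followed by Trem1 with S100a9 (r = 0.985) and Cxcr2 with Retnlg (r = 0.983). Ly6g ran closest to Trem1 (r = 0.923) and furthest from Fpr1 among the genes it shared a sign with (r = 0.205). Fpr1 ran closest to Cxcr2 (r = 0.877), and Fpr2 to S100a8 (r = 0.978). Cxcr1 had a negative r with each of the other 8 genes, from -0.789 with Trem1 to -0.175 with Fpr1.

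The other genes most like each of the 9 were sought by the same r over the 8 mice among 15605 genes with a mean of at least 1 CPM, as a description of pattern alone. Ly6g was followed most closely by Txk (r = 0.978), Mboat7 (r = 0.975) and Kif21b, and Trem1 by Gpr132, 1700071M16Rik and Fcgr4, all at r = 0.996. For Cxcr2 the closest were Gmip (r = 0.98), Apobec1 (r = 0.98) and AB124611 (r = 0.976), and for Retnlg they were AB124611 (r = 0.99), Prkcb (r = 0.986) and Apbb1ip (r = 0.985). Fpr1 was matched by Pilra (r = 0.991), Serpinb9b (r = 0.988) and Cyp4f18 (r = 0.987), and Fpr2 by C5ar1 (r = 0.996), Ifitm6 (r = 0.995) and Ikzf1 (r = 0.993). S100a8 had Metrnl (r = 0.998), Ltb4r1 (r = 0.996) and Lrrc25 (r = 0.996) nearest, and S100a9 had Wfdc17 (r = 0.997), Smpdl3b (r = 0.997) and Lrrc25 (r = 0.996). Cxcr1, at few counts, was nearest to D630045J12Rik (r = 0.978), Tmprss2 (r = 0.972) and Ctnnal1 (r = 0.969). AB124611 and Lrrc25 were each near to 2 of the 9 genes.

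The ligands of these receptors were measured in the same lungs, with calls by edgeR's quasi-likelihood F-test, Benjamini-Hochberg adjusted. The background over all genes was 32.6% higher and 33.9% lower with LPS, 31.7% and 27.4% from LPS to dual-treated lungs, and 9.13% and 7.02% against control. Of 6 ELR chemokines, ligands of Cxcr2 or attractants of neutrophils, 4 rose, 1 fell and 1 was not called with LPS, 5 fell and 1 was not called from LPS to dual-treated lungs, and 3 rose against control in dual-treated lungs. Cxcl2 averaged 4.42 CPM in control, 512 CPM in LPS and 8.73 CPM in dual-treated lungs, where it was not called against control. In the same order of groups, Cxcl1 averaged 4.01, 189 and 20.8 CPM, and Cxcl3 0.514, 60.7 and 3.53 CPM. Cxcl5 averaged 0.578, 14.3 and 3.07 CPM, Ppbp 20.65, 36.1 and 9.09 CPM, and Cxcl15 978, 536 and 613 CPM. Of 5 protein ligands of Fpr1 and Fpr2, all 5 rose with LPS, all 5 fell from LPS to dual-treated lungs, and 4 rose in dual-treated against control lungs. Saa3 averaged 6810 CPM in LPS and 1504 CPM in dual-treated lungs, and Anxa1 698 and 324 CPM. Fpr2 itself was not called between those groups.

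Downstream of the receptors, calls are again by edgeR's quasi-likelihood F-test, Benjamini-Hochberg adjusted. Over all genes 32.6% were called higher and 33.9% lower with LPS, 31.7% and 27.4% from LPS to dual-treated lungs, and 9.13% and 7.02% in dual-treated against control lungs. Of 12 chemoattractant signalling genes, 7 rose, 2 fell and 3 were not called with LPS, and 9 rose and 3 were not called from LPS to dual-treated lungs. Against control, 10 of the 12 rose in dual-treated lungs. Gnai2, the G protein subunit through which Cxcr2 and Fpr1 signal, fell by a log2FC of -0.41 with LPS and rose by 0.92 from LPS to dual-treated lungs. Of 7 genes for Trem1's ligand, adaptor and signalling, 6 rose and 1 fell with LPS, 3 rose and 4 fell from LPS to dual-treated lungs, and 5 rose against control. The adaptor Tyrobp rose by 1.18 from LPS to dual-treated lungs, the direction opposite to Trem1. Of 5 receptors and co-receptors of S100a8 and S100a9, 2 rose and 1 fell with LPS, 1 rose and 2 fell from LPS to dual-treated lungs, and 1 rose and 1 fell against control. Cd14 averaged 44.2, 794 and 141 CPM in control, LPS and dual-treated lungs, and Tlr4 15.6, 11.8 and 19.9 CPM.

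Relatives of the 9 genes were counted by edgeR's quasi-likelihood F-test, Benjamini-Hochberg adjusted. The shares of all genes to set beside these counts are 32.6% higher and 33.9% lower with LPS, 31.7% and 27.4% from LPS to dual-treated lungs, and 9.13% and 7.02% against control. Of 8 Ly6 genes near Ly6g on chromosome 15, 7 were tested, and all 7 rose with LPS. From LPS to dual-treated lungs 2 rose, 1 fell and 4 were not called, and 5 rose against control. Ly6a rose by a log2FC of 0.97 and Ly6i fell, with -1.39, where Ly6g had -2.75. The 5 relatives of Fpr1 and Fpr2 had 0 counts in all 8 mice, where the rule for reads shared between related genes is not given in the sources used here. Of 5 other CXC receptors, 1 rose and 2 fell with LPS, 2 fell and 3 were not called from LPS to dual-treated lungs, and 1 rose and 2 fell against control. Cxcr4, which retains neutrophils in marrow, was not called with LPS (log2FC -0.05) and fell by -0.74 from LPS to dual-treated lungs, where Cxcr2 rose. Of 5 Trem relatives, 4 rose and 1 fell with LPS, 2 rose and 1 fell from LPS to dual-treated lungs, and 4 rose against control. Trem2, a macrophage receptor, moved against Trem1, with -1.15 with LPS and 2.60 from LPS to dual-treated lungs. Of 3 resistin relatives 2 were tested, and Retnla rose by 3.50 with LPS and fell by 3.93 from LPS to dual-treated lungs, a step in which Retnlg rose, while Retn was not called. Of 10 other S100a genes 9 were tested, and 2 rose with LPS, 4 rose and 1 fell from LPS to dual-treated lungs, and 1 rose against control.

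Other neutrophil genes were counted beside the 9, by edgeR's quasi-likelihood F-test, Benjamini-Hochberg adjusted. With LPS 32.6% of all genes rose and 33.9% fell, and in dual-treated against control lungs 9.13% rose and 7.02% fell. Of 14 further markers of mature neutrophils, 11 rose, 1 fell and 2 were not called with LPS, and 12 rose and 1 fell in dual-treated against control lungs. From LPS to dual-treated lungs 6 of them rose, 5 fell and 3 were not called, with a median log2FC of 0.11, where 31.7% of all tested genes rose and 27.4% fell. Their summed level was 272, 284 and 295 CPM in control, 1091, 1343 and 1102 CPM in LPS and 751 and 805 CPM in dual-treated mice. Hdc, Il1r2 and Cd177 fell from LPS to dual-treated lungs, with log2FC of -2.10, -1.57 and -1.08, and G0s2 rose by 2.00 (the list's 4 most abundant genes). Of 9 granule genes of neutrophil precursors 8 were tested, and all 8 rose with LPS, 7 fell and 1 was not called from LPS to dual-treated lungs, and 3 rose against control. Their median log2FC was 3.37, -2.20 and 0.61 in these comparisons, where the 9 genes had 2.71, 0.38 and 3.09. The most abundant was Lcn2, which airway epithelium also makes, except in control mouse 2, where it was Ltf. Their sum was 271, 257 and 219.6 CPM in control, 14700, 15160 and 10800 CPM in LPS and 4775 and 1318 CPM in dual-treated mice. The parts of mature and precursor cells in the levels of the 9 genes were not tested.

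Markers of other cells that could move with these genes were counted by edgeR's quasi-likelihood F-test, Benjamini-Hochberg adjusted, where all genes gave 32.6% higher and 33.9% lower with LPS, 31.7% and 27.4% from LPS to dual-treated lungs, and 9.13% and 7.02% against control. Of 9 monocyte markers, 4 rose and 4 fell with LPS, 6 rose and 2 fell from LPS to dual-treated lungs, and 5 rose against control. Their sum was 1607, 1426 and 1833 CPM in control, 1310, 768 and 816 CPM in LPS and 1736 and 2352 CPM in dual-treated mice. The most abundant of them was Ace, which lung capillaries also express, in control and dual-treated mice and Nr4a1 in LPS mice. Of 9 alveolar macrophage markers 4 fell and 5 were not called with LPS, 5 rose from LPS to dual-treated lungs, and 1 rose against control. These summed to 1006, 913 and 943 CPM in control, 1039, 1189 and 726 CPM in LPS and 1816 and 1801 CPM in dual-treated mice. Chil3 was the most abundant in each mouse but dual-treated mouse 2, where it was Fabp4. Fpr1, Fpr2, Cxcr2 and Trem1 are also expressed by monocytes or macrophages. The part of those cells in the levels of the 9 genes, S100a8 and S100a9 included, was not tested. Of 5 eosinophil markers 3 were tested: 1 rose and 1 fell with LPS, 2 rose and 1 fell from LPS to dual-treated lungs, and all 3 were uncalled against control. The eosinophil peroxidase gene Epx was at 0 in every mouse but LPS mouse 1, at 0.0593 CPM. Of 7 B and T cell markers 3 fell with LPS, 2 rose and 1 fell from LPS to dual-treated lungs, and all 7 were uncalled against control.

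Blood and structural markers were counted by edgeR's quasi-likelihood F-test, Benjamini-Hochberg adjusted. All tested genes, for comparison, were 32.6% higher and 33.9% lower with LPS, 31.7% and 27.4% from LPS to dual-treated lungs, and 9.13% and 7.02% in dual-treated against control lungs. All 5 red cell markers fell from LPS to dual-treated lungs, with a median log2FC of -2.41, all 5 fell against control, and all 5 were uncalled with LPS. They summed to 1734, 3908 and 2785 CPM in control, 3284, 1884 and 1468 CPM in LPS and 426 and 381 CPM in dual-treated mice, with Hbb-bs the most abundant. Retnlg, Cxcr2 and Fpr1 were highest in these same 2 lungs, and the part of retained blood in the comparison was not tested. Of 5 platelet markers 3 rose with LPS, 3 fell from LPS to dual-treated lungs, and 1 rose against control. Of 10 squamous markers tested, 6 rose with LPS and 7 fell from LPS to dual-treated lungs, with a median of -5.43 (-5.27 with genes at 0 counts set to their bound), and all 10 were uncalled against control. Of 7 skeletal muscle markers tested, all 7 rose with LPS, all 7 fell from LPS to dual-treated lungs, and 1 fell against control. In LPS mice 1, 6 and 7 the squamous markers summed to 1.84, 707 and 1998 CPM. The muscle markers summed to 52.7, 337 and 682 CPM there, and to 25.5, 70.7 and 41.5 CPM in control mice 1, 2 and 4. The counts of both lists were not recomputed without LPS mice 6 and 7. Of 6 lung epithelium and capillary markers, 1 rose and 2 fell with LPS, 2 fell from LPS to dual-treated lungs, and 1 fell against control.

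**Figure D3:**
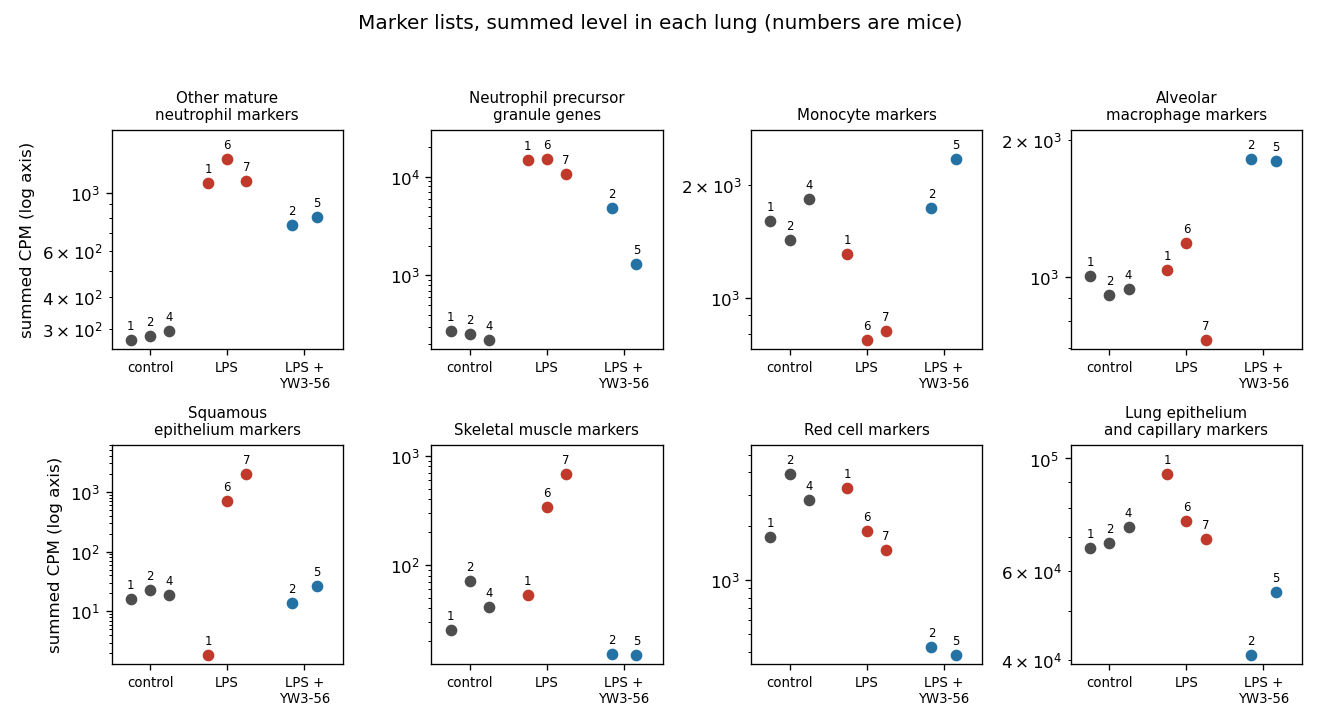
Points are the summed CPM of 8 marker lists in each mouse (its number beside it) on log axes, by group. LPS mice 6 and 7 stand out for squamous and muscle markers, and both dual-treated mice are lowest for red cell markers, at 426 and 381 CPM.

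With LPS mice 6 and 7 left out, the remaining LPS mouse 1 held almost no squamous signal. Cxcr1 was then no longer called against control, at a fitted log2FC of -6.54 with 0 counts in that mouse. The log2FC against control was 4.50 for Ly6g, 1.86 for Cxcr2, 0.23 for Fpr1, which was not called, 2.63 for Fpr2, 2.35 for Retnlg, 4.13 for S100a8 and 4.28 for S100a9. The 7 genes that rose with LPS in the fit on all mice had a log2FC above 0 in that setting too, with 4.43 for Trem1. For dual-treated against LPS lungs Fpr1 had 2.08 and Fpr2 0.45, and S100a9 had -0.45.

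Promoter windows of the 9 genes were read from the RefSeq promoter table, on build GRCm38.p6, whose coordinates differ from those of the gene positions above. Each window spans 300 bases, 250 before and 50 after the annotated start. The 9 genes had 10 windows, 2 of them for Ly6g. Both strands were searched for TTGCNNAA (C/EBP), GAGGAA (PU.1), TTCNNNGAA (STAT) and, for NF-kB, GGG and CC with 5 bases between them. C/EBP letters were found in 3 of the 9 genes and in 10.8% of all 32851 windows, PU.1 letters in 5 of the 9 and in 28.3%, STAT letters in 2 of the 9 and in 8.30%, and the NF-kB pattern in 3 of the 9 and in 50.8%. Fpr1 had none of the 4 in its window. Cxcr2 had 2 PU.1 matches and 1 NF-kB match, Cxcr1 had 2 NF-kB matches, and Fpr2 and Trem1 each had 1 PU.1 and 1 STAT match. A match is only a run of letters, and a window without one says nothing of the factor. The windows of S100a8 (chr3:90668821-90669120, plus strand), S100a9 (chr3:90695672-90695971, minus strand), Ly6g (the first, chr15:75155011-75155310, plus strand) and Retnlg (chr16:48872358-48872657, plus strand) are shown because S100a8 and S100a9 had the closest pair of patterns while Ly6g and Retnlg moved apart in dual-treated lungs. They are written 5′ to 3′ on the gene's strand, with matches in capitals. S100a8 has 2 PU.1 matches, S100a9 and Retnlg have 1 C/EBP match each, and Ly6g has 1 C/EBP match, 2 PU.1 matches and 1 NF-kB match that overlaps a PU.1 match.
S100a8: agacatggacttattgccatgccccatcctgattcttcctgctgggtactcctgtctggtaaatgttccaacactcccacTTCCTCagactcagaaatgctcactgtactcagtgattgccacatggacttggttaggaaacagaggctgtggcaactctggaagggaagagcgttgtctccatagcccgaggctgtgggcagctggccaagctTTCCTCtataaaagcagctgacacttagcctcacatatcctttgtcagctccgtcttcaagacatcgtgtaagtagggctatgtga
S100a9: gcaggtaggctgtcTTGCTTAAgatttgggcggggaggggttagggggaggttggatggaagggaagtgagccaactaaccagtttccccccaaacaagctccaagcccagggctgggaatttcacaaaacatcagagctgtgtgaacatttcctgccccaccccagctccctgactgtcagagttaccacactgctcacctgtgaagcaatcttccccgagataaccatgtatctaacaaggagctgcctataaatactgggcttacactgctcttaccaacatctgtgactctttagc
Ly6g: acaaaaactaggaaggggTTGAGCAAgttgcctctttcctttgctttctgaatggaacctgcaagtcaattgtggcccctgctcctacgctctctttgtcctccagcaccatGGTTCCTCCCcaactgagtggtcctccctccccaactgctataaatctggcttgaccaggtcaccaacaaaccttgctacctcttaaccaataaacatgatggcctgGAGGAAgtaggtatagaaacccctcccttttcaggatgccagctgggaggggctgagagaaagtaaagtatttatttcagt
Retnlg: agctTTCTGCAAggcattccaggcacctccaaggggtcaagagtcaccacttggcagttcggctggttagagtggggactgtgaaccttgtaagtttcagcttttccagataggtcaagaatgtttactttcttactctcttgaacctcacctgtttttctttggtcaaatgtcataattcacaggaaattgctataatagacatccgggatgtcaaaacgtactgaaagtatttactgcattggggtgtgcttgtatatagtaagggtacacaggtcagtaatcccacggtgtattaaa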

How the data were processed

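Lung RNA-seq of 8 mice in 3 groups was used. The authors deposited raw counts per gene for each mouse, without normalization. Per the submitters' processing notes, reads were checked with FastQC 0.11.9, trimmed with Trim Galore, aligned to GRCm39 with HISAT2 2.2.1 and counted with featureCounts 2.0.1. The annotation release, strand setting and multimapping rule are not given in the sources used here.

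Symbols and coordinates came from GENCODE. In R 4.3.3, edgeR 4.0.16 was used with TMM, filterByExpr by group (18560 genes) and the quasi-likelihood test on all 8 mice with 1 group factor (5 residual degrees of freedom). A call is a Benjamini-Hochberg adjusted p under 0.05 over all tested genes. SE is the log2FC divided by the square root of F. Log2 CPM used a prior count of 2. Within-mouse ratios of 11 pairs were compared by an exact permutation test.

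The rule for named genes allowed all 9 members, the 4 most abundant genes of each other list (all of lists up to 6) and 3 pattern neighbours per member. The members and neighbours are all named. From the other lists the text names some of the genes allowed, and these, with Tnnc2 from outside the rule, were picked after their values were seen. The members and lists were chosen with earlier results of these data known. Alternatives were DESeq2 1.42.0, library size or DESeq2 size factors as scaling, no filter on low counts, at least 10 counts in every mouse, fold over 2 with unadjusted or adjusted p, the 2 compared groups alone, a prior count of 0.5, each mouse left out, and LPS mice 6 and 7 left out.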

Additional observations from a re-analysis of the deposited data

How the results depend on the processing

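Of 369 fold changes of the 9 genes under the alternatives, 347 kept their direction and their side of the test's threshold, 5 no longer passed, 12 passed where they had not, and 5 changed sign. All 5 that changed sign were uncalled values of dual-treated against LPS lungs. S100a8 was -0.08 and became 0.24 on library size only and 0.079 with LPS mice 6 and 7 left out. With 1 mouse left out at a time it ran from -0.37 to 0.15, and was above 0 without LPS mouse 6 or dual-treated mouse 2 (0.11). Cxcr1 was 3.42 and ran from -2.0, without dual-treated mouse 5, to 5.47 with 1 mouse left out at a time. With LPS mice 6 and 7 left out, the calls of Ly6g, Cxcr2 and Retnlg in dual-treated against LPS lungs were lost. Their log2FC was then -2.08, 1.13 and 1.35. That setting leaves 1 LPS mouse, assumed to vary like the other groups, and beyond this the cause was not tested. With at least 10 counts in every mouse, Ly6g and Cxcr1 were not tested, nor was Cxcr1 for the comparisons with LPS lungs when the 2 compared groups were fitted alone. The 369 fold changes also hold no DESeq2 value for Cxcr1 in dual-treated against control lungs.

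No paired analysis was run, because each lung is a separate mouse and the labels give no pairing between groups. Depth limits Cxcr1 most, with 1 count in all LPS lungs, and Ly6g in control lungs, with 3 to 17 counts.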
